A study of Homo sapiens with 6 samples.

Results

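The genes described here are the cadherins, the protocadherins and the genes of cell junctions in human bladder carcinoma cells that are sensitive or resistant to chemotherapy. They were chosen by name and type: protein-coding genes whose symbols mark cadherins (CDH, CDHR), protocadherins (PCDH), desmosomal cadherins and plaque proteins (DSC, DSG, PKP, DSP, JUP), large cadherins (CELSR, DCHS, FAT), tight junction proteins (CLDN, OCLN, TJP, JAM), connexins (GJA, GJB, GJC), nectins and cell adhesion molecules of the CADM family. The analysed table held 41 such genes among its 2462 genes, while the GENCODE version 44 annotation holds 174 genes that fit the rule. T24 is an established human bladder carcinoma line, labelled as spontaneously immortalized. Its derivative T24-R, labelled T24DDP, was made resistant by intermittent exposure of T24 to rising concentrations of gemcitabine and cisplatin, and whether it is 1 clone is not stated. RNA of each line was sequenced in 3 libraries, 6 in all, and the comparison asks which transcripts differ between the resistant line and its parent.

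The table was selected on the outcome: the authors kept genes that passed their own test of T24-R against T24 on these same 6 libraries. A gene that is not listed is therefore not shown to be unchanged, and a call on a listed gene is a description rather than an independent result. Values are scaled counts, that is, reads on a gene divided by 1 size factor per library, and the size factors lay between 0.939 and 1.08. The libraries held 1170731 to 1411926 reads on listed genes. A library of T24 had 1767 to 2021 reads on the 41 genes, and a library of T24-R 8105 to 9519. Beyond counting noise, T24-R replicate 3 stood apart from its group: over all listed genes the median chi-square between single-gene counts was 2.82 and 2.92 against T24-R replicates 1 and 2, 0.732 between those 2, and 0.852 to 1.29 among the T24 libraries. Over the junction genes these values were 1.99 and 1.64 for replicate 3 and 1.13 for the pair without it. In bulk RNA, fewer cells that express a gene and less RNA per cell cannot be told apart. Of 15 urothelial marker genes 3 were listed: KRT19 (mean scaled count 174 in T24, 0.326 in T24-R) and PPARG (1282, 397) were lower in T24-R and GATA3 (1.73, 42.3) was higher. Their summed scaled count, most of it PPARG, was 1392 to 1583 in T24, against 399 to 478 in T24-R. Of 8 fibroblast markers COL1A1 was listed (22.4 to 47.4 in T24, 142 to 212 in T24-R), of 6 endothelial markers PECAM1 was (0 to 4.26 and 21.0 to 32.3), and none of 5 immune or 5 neural markers was. The part of these shifts in the junction genes was not tested.

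Cells of an epithelium hold together through several junctions. Classical cadherins bind their like on the neighbouring cell and reach the actin cytoskeleton through catenins, desmosomes tie the keratin filaments of neighbours together, tight junctions of claudins and occludin seal the space between cells, and connexins form gap junction channels. The clustered protocadherins are best known from neurons, where each cell uses its own combination of them. Their genes lie in neighbouring arrays on chromosome 5. In the alpha (PCDHA) and gamma (PCDHG) arrays, each gene contributes its own large first exon, which is spliced to constant exons shared by the array, whereas the beta (PCDHB) genes have a single coding exon of their own. Most of their promoters carry a conserved element with the letters CGCT, which the architectural protein CTCF is known to bind.

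The promoters of the PCDHB genes, taken from RefSeq on GRCh38.p14 as 250 bases before to 50 bases after each gene start, shared the 9 letters GGTGGCGCT on either strand, a motif chosen after these promoters had been seen. It was present in 13 of the 13 listed PCDHB genes with a promoter in that table, and began 84 to 2 bases before the gene start. It was found in 0 of 10 listed PCDHG genes and in 0 of 10 of the genes outside the arrays. Among all genes of the table of promoters 169 of 27305 (0.619%) carried it. In the windows below, each 30 bases long and given 5′ to 3′ on the plus strand, the capitals mark the motif. The shared letters follow from how it was chosen, and its part in these levels was not tested. The windows include PCDHB5, the only listed PCDHB gene with a lower level in T24-R on the deposited scaling, and genes that were higher there. Under TMM scaling, described further on, PCDHB2 (-0.32), PCDHB9 (-0.18) and PCDHB14 (-0.28) were also negative on the log2 scale. The last window is from PCDHB1, the PCDHB gene that was not listed, whose closest run of letters differs at 1 position, given in lower case.
PCDHB2, chr5:141094545-141094574: agagacgcggGGTGGCGCTgcagccttaga
PCDHB5, chr5:141135180-141135209: taggacgcctGGTGGCGCTgcaggctaaga
PCDHB7, chr5:141172567-141172596: caaaacgcaaGGTGGCGCTgctggctaaaa
PCDHB10, chr5:141192300-141192329: gaggccacacGGTGGCGCTgcaggctaaag
PCDHB14, chr5:141223264-141223293: ggagacacatGGTGGCGCTacaggataaga
PCDHB15, chr5:141245315-141245344: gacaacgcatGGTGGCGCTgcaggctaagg
PCDHB1, chr5:141051338-141051367: gctagcctttGGTGGtGCTgcagttagagg

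A second motif, CACCTG with its reverse complement CAGGTG, is the E-box that repressors of the SNAIL and ZEB families bind in promoters of epithelial genes. It was also chosen after the promoters had been seen. It occurred in 9 of 34 junction genes with a promoter (26.5%), against 6571 of 27305 genes (24.1%), and in 7 of the 10 outside the arrays (70.0%). A gene counted if any of its promoters held the motif, and CLDN7, CLDN16, JUP, OCLN and TJP3 had 2 promoters each. These shares are therefore not matched for the number of promoters per gene. Of all 35116 promoters 20.6% held the motif. One of the promoters of CLDN7 held 5 matches, and 33 of 35116 promoters (0.094%) held 5 or more. The following window of it, on the minus strand along the gene, shows 2 of the matches in capitals, because CLDN7 was the gene with the lowest log2 fold change of the 41. The other promoter of CLDN7 held 0 matches. Outside the arrays CADM4, JUP, OCLN, PCDH1, TJP3 and CLDN16 also carried this motif, and they were higher in T24-R on the deposited scaling. A match is a description of the letters and not evidence of binding, and its part in these levels was not tested. CDH3, CADM1, JAM2, PCDHB6, PCDHB11 and PCDHGC5 were among the genes with no entry in the table of promoters.
CLDN7, chr17:7262482-7262511: ccctacatatactCAGGTGcgcccCACCTG

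Junction genes were mostly higher in the resistant line on the deposited scaling, and less often so under another scaling given below. With limma on log2(scaled count + 1) and Benjamini-Hochberg adjustment over all 2462 genes, 39 of the 41 genes passed as higher in T24-R, while PCDHB5 and CLDN7, the other 2, passed as lower. A gene passes, or is called, if its adjusted p-value is under 0.05 and its log2 fold change exceeds 1 in size. Since the table was selected for such genes, 98.3% of all its genes were called, 69.2% higher and 29.2% lower. All 41 genes had groups that did not overlap, 39 with T24-R above and 2 below, as had 99.1% of listed genes (70.0% above, 29.1% below). The smallest two-sided p-value that an exact permutation test of 3 against 3 libraries can give is 0.1, so single genes were not tested that way. The log2 fold changes ran from -2.89 (CLDN7) to 5.81 (CADM1), with a median of 1.92, and the median over all listed genes was 1.41. Among the 1883 other protein-coding genes the median was 1.36, and 69.1% of the called ones were higher, against 95.1% of the junction genes. Of the 41 genes 27 are clustered protocadherins of 1 interval of chromosome 5 and partly share sequence, so they are not separate observations. Of the called genes 92.9% were higher among the 14 outside the arrays, and 81.8% among the other listed genes of chromosome 5.

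The direction of the smaller changes depends on how the libraries are scaled. TMM factors computed on the table moved the median log2 fold change of all listed genes by -1.32, from 1.41 to 0.09. TMM takes most genes to be unchanged, which a table of selected genes does not meet. Under it 33 of the 41 genes stayed positive and 8 were negative, 14 were called higher and 2 lower (of all listed genes 53.0% were called, 23.8% higher and 29.3% lower). The median of the 41 was then 0.66. Among the 14 were CADM1, CDH8, CDH3, JAM2, CDHR1, JUP, TJP3, PCDHA1, PCDHB6, PCDHB7, PCDHB8, PCDHB10 and PCDHB15. A test against an absolute log2 fold change of 1 (limma treat), on the deposited scaling, called 25 genes higher and 2 lower, against 42.0% and 10.7% of all listed genes (52.7% in all). Of the 41 genes, 15 had a mean scaled count of at least 50 over the 6 libraries. A gene can reach that mean through T24-R alone, as CADM1 did (means of 4.78 in T24 and 319 in T24-R). PCDHB5 and CLDN7, the genes called lower, fell below it, so the direction of the 15 was partly set by this filter. On the deposited scaling each of these 15 was higher, with a median of 1.89. Of the called genes among the 1287 listed genes at that level 60.5% were higher, and the median of the 1287 was 1.12. Under TMM 11 of the 15 were positive and 4 negative, and 6 were called higher. Their median was then 0.55, against -0.23 for the 1287.

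**Figure D1:**
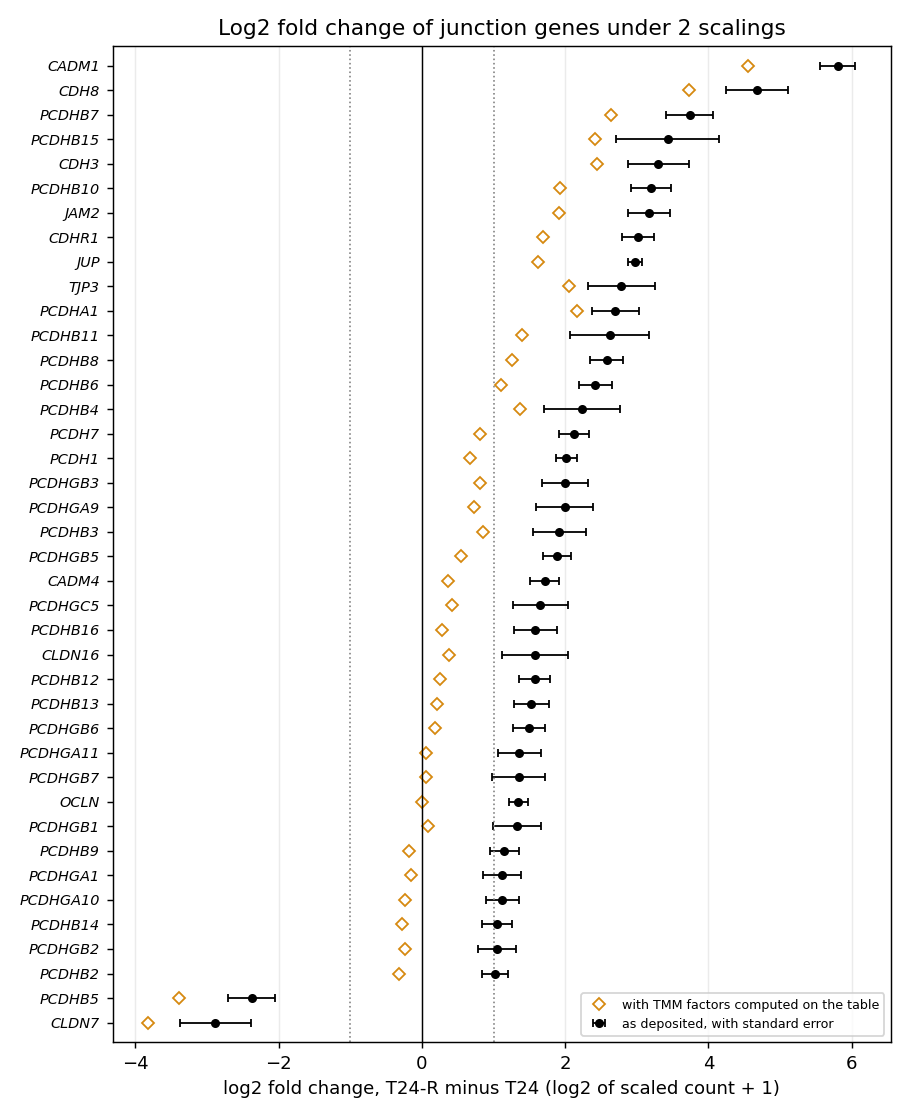
Log2 fold change (T24-R minus T24, on log2 of scaled count + 1) of junction genes, 1 row per gene, ordered by size: black points with standard error bars use the deposited scaling, open diamonds use TMM factors computed on the table, and dotted lines mark a log2 fold change of 1 and -1. On the deposited scaling all genes shown but PCDHB5 and CLDN7 lie above 0, while under TMM PCDHB2, PCDHB9, PCDHB14, PCDHGA1, PCDHGB2 and PCDHGA10 also lie below 0.

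Of the classical cadherins 2 of 18 annotated genes were listed, and both rose from a level near the floor of detection. CDH8, a type II cadherin best known from the nervous system (chromosome 16), had scaled counts of 1.06, 2.04 and 0 in T24, against 57.9, 38.8 and 44.1 in T24-R. Its T24 libraries held 3 reads in all, so the change is given as a ratio of reads corrected for depth, 45.9 with an exact 95% interval of 15.4 to 225. Such intervals cover counting error only, since the reads of the 3 libraries of a group were summed and the spread between libraries is left out. Reads also carry no molecular identifiers, so duplicate reads are not told apart. CDH3, the P-cadherin of basal epithelial cells (chromosome 16), had 0, 1.02 and 0.968 in T24, against 19.0, 18.5 and 8.81 in T24-R. With 2 reads in T24 against 48 in T24-R its ratio was 22.8 (5.98 to 194). The groups of both genes lay apart, and T24-R replicate 3 had less CDH3 than the other 2 T24-R libraries. The fitted log2 fold changes were 4.68 ± 0.43 (SE, limma adjusted p = 1.62e-05) for CDH8 and 3.30 ± 0.42 (adjusted p = 9.39e-05) for CDH3, and 3.73 and 2.44 under TMM. The epithelial cadherin CDH1 and the mesenchymal cadherin CDH2 were not listed.

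CDHR1, a cadherin-related protein of photoreceptors (chromosome 10), was the only 1 of 10 other cadherins listed. Its scaled counts were 20.2, 26.6 and 35.8 in T24, against 214, 205 and 258 in T24-R, that is, 27.5 ± 7.84 and 225 ± 28.2 (SD, n = 3). All T24-R libraries lay far above the T24 ones, an 8.19-fold difference (log2 fold change 3.02 ± 0.23 SE, limma adjusted p = 6.10e-06; 1.69 under TMM). None of the 9 annotated large cadherins (CELSR, DCHS, FAT) was listed.

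Of 13 non-clustered protocadherins PCDH1 and PCDH7 were listed, and both were higher in T24-R. PCDH1, an epithelial protocadherin on chromosome 5 that lies 340.1 kb beyond the gamma array, had scaled counts of 563, 576 and 566 in T24, against 2111, 1987 and 2913 in T24-R. The 3 T24 libraries lay close together, while T24-R replicate 3 was 1.42 times the mean of the other 2. The means were 568 ± 6.81 and 2337 ± 503 (SD, n = 3), a 4.11-fold difference (log2 fold change 2.02 ± 0.15 SE, limma adjusted p = 5.37e-06; 0.66 under TMM). PCDH7, of the same delta subfamily (chromosome 4), had 14.9, 17.4 and 17.4 in T24, against 71.8, 78.5 and 76.4 in T24-R. It differed 4.56-fold with little spread in either group (log2 fold change 2.13 ± 0.21 SE, limma adjusted p = 1.98e-05; 0.82 under TMM). Exons of other genes on the opposite strand cover 12.4% of the exonic bases of PCDH7, and whether the counting used the strand is not given in the sources used here.

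JUP encodes plakoglobin, a catenin that serves desmosomal and classical cadherins, and it was the only listed gene of 13 desmosomal ones (chromosome 17). It had scaled counts of 324, 290 and 322 in T24, against 2394, 2456 and 2525 in T24-R. The groups were far apart with small spread, 312 ± 19.0 against 2458 ± 65.8 (SD, n = 3), a 7.88-fold difference with the smallest adjusted p-value of the 41 genes (log2 fold change 2.98 ± 0.10 SE, limma adjusted p = 1.38e-07; 1.62 under TMM). The desmosomal cadherins DSG2, DSG3, DSC2 and DSC3, the plakophilins and DSP were not listed.

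Of 33 tight junction genes 5 were listed, 4 higher and 1 lower in T24-R. JAM2, an immunoglobulin-like adhesion molecule (chromosome 21), had 4.26, 7.15 and 4.84 in T24, against 53.9, 47.1 and 67.6 in T24-R, a 10.4-fold difference (log2 fold change 3.17 ± 0.29 SE, limma adjusted p = 1.54e-05; 1.92 under TMM). OCLN, occludin, a membrane protein of the tight junction strands (chromosome 5), had 76.6, 74.6 and 73.6 in T24, against 205, 184 and 189 in T24-R. Its groups were tight and apart, 2.57-fold on the deposited scaling (log2 fold change 1.35 ± 0.14 SE, limma adjusted p = 2.47e-05), but under TMM its log2 fold change was 0.0065. TJP3, the scaffold protein ZO-3 (chromosome 19), had 0, 0 and 1.94 in T24, against 10.98, 9.24 and 6.85 in T24-R. Its 2 reads in T24 against 28 in T24-R gave a ratio of 13.3 (3.35 to 115), and the fitted log2 fold change was 2.79 ± 0.46 (SE, limma adjusted p = 4.21e-04; 2.05 under TMM).

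The 2 listed claudins went in opposite directions. CLDN16, a claudin known from magnesium uptake in the kidney (chromosome 3), had 3.19, 5.11 and 7.74 in T24, against 32.9, 11.1 and 13.7 in T24-R. Its groups did not overlap, and T24-R replicate 1 stood above the other 2 (log2 fold change 1.58 ± 0.46 SE, limma adjusted p = 8.42e-03; 0.38 under TMM). CLDN7, a claudin of epithelia (chromosome 17), had 18.1, 16.3 and 12.6 in T24, against 0, 2.77 and 1.96 in T24-R. It had 46 reads in T24, against 5 in T24-R, where every library was at or below 3 reads, and the level in T24 was 9.68 times that in T24-R (3.86 to 31.2, by counting error). The log2 fold change of CLDN7 was -2.89 ± 0.50 (SE, limma adjusted p = 5.14e-04), and -3.83 under TMM. Of its exonic bases 10.8% are also exonic in another gene on the same strand. CLDN1, CLDN3, CLDN4 and TJP1 were not listed.

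Of the 8 nectins and CADM genes CADM1 and CADM4 were listed. CADM1 (chromosome 11) encodes an immunoglobulin-like molecule that links neighbouring epithelial cells outside the junctions named above, and is also known as a tumour suppressor of lung cancer. It had scaled counts of 6.39, 4.09 and 3.87 in T24, against 329, 273 and 354 in T24-R, the largest log2 fold change of the 41 genes. The means were 4.78 ± 1.39 and 319 ± 41.1 (SD, n = 3), a 66.7-fold difference (log2 fold change 5.81 ± 0.24 SE, limma adjusted p = 4.02e-07; 4.56 under TMM). CADM4, of the same family (chromosome 19), had 57.5, 64.4 and 74.5 in T24, against 266, 222 and 169 in T24-R. It differed 3.35-fold with wider spread in T24-R (log2 fold change 1.71 ± 0.20 SE, limma adjusted p = 5.47e-05; 0.37 under TMM).

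**Figure D2:**
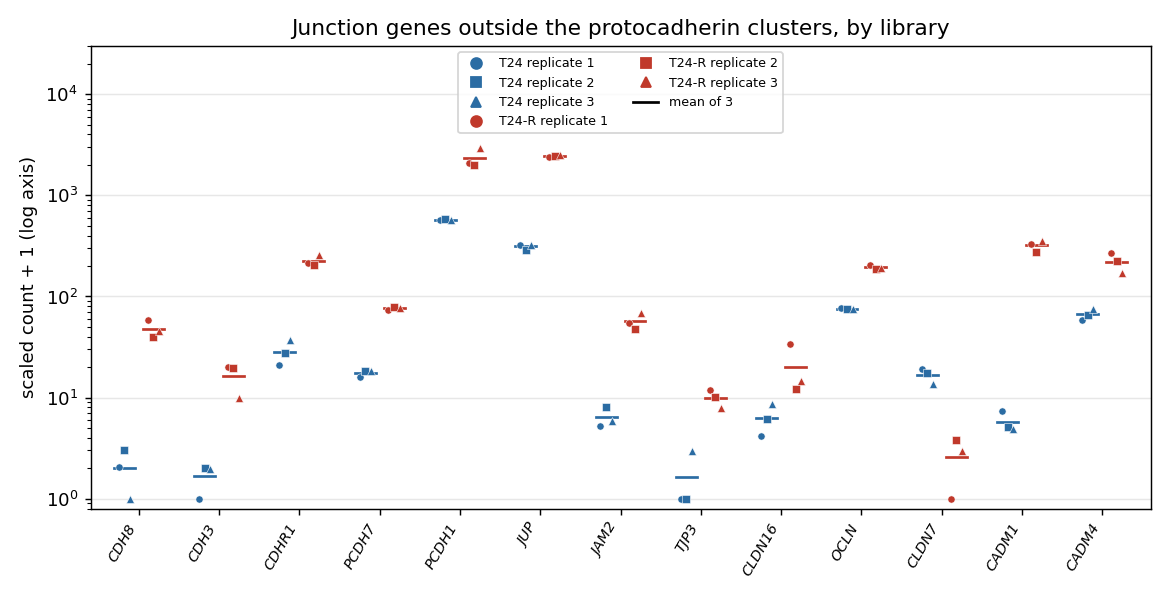
Scaled count + 1 (log axis) in each library for junction genes outside the protocadherin arrays; blue symbols are the 3 T24 libraries, red symbols the 3 T24-R libraries, and bars the mean of 3. The red symbols lie above the blue ones for every gene shown but CLDN7, and in T24 the libraries of CDH8, CDH3 and TJP3 lie at or below 3 reads.

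The clustered protocadherins made up 27 of the 41 genes. They lie in an interval of 726.8 kb of chromosome 5, from 140786136 to 141512981 (coordinates of the table, on GRCh38). The table listed 28 genes in it, these 27 and the pseudogene PCDHB18P. Of the 27 genes 26 passed as higher and 1 as lower, with a median log2 fold change of 1.58, and under TMM 20 were positive and 7 negative with a median of 0.28. Of 90 other listed genes of chromosome 5, 72 passed as higher and 16 as lower with a median of 1.62. The arrays were listed to unequal extents: 1 of 15 PCDHA genes, 15 of 16 PCDHB genes, and 11 of 22 PCDHG genes, the last as 4 of 12 PCDHGA, 6 of 7 PCDHGB and 1 of 3 PCDHGC. Genes of the arrays are similar in sequence: 9.67% to 49.2% of the 50-base stretches of a PCDHB gene and 35.3% to 54.8% of those of a PCDHG gene also occur in transcripts of other genes. PCDHG genes further share 32.1% to 45.6% of their exonic bases with other genes on the same strand, so reads may have been split or left out among them and their single values are uncertain. Over the 23 junction genes with under 20% shared stretches, 21 passed as higher and 2 as lower, with a median log2 fold change of 2.39 on the deposited scaling. Of all listed genes 69.2% passed as higher and 29.2% as lower. Under TMM 20 of the 23 were positive and 3 negative, 11 were called higher and 2 lower, and the median was 1.10. Under that scaling 23.8% of all listed genes were called higher and 29.3% lower, and their median was 0.09.

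The summed scaled count of the 15 PCDHB genes was 298 to 313 in T24 (305 ± 7.43 SD, n = 3) and 894 to 1070 in T24-R (1005 ± 96.5), a 3.29-fold difference. The most abundant PCDHB transcript in T24 was PCDHB2, with scaled counts of 88.3, 83.8 and 79.4. It reached 207, 178 and 136 in T24-R, with the lowest value in replicate 3. This 2.07-fold difference was the smallest of the array (log2 fold change 1.02 ± 0.18 SE, limma adjusted p = 5.99e-04), it fell under the fold threshold when T24 replicate 3 or either of T24-R replicates 1 and 2 was left out (0.89 to 1.19 over all omissions), and under TMM it was -0.32. Exons on the opposite strand overlap 43.9% of the exonic bases of PCDHB2. Its share of the PCDHB sum went from 26.6% to 28.2% in T24 down to 15.2% to 19.3% in T24-R, without overlap.

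PCDHB6 and PCDHB8 took larger shares in the resistant line. PCDHB6 had scaled counts of 21.3, 26.6 and 21.3 in T24, against 138, 156 and 96.0 in T24-R, a 5.64-fold difference (log2 fold change 2.42 ± 0.23 SE, limma adjusted p = 2.00e-05; 1.10 under TMM). Its share of the sum was 6.80% to 8.70% in T24, against 10.7% to 14.9% in T24-R. PCDHB8 had 17.0, 26.6 and 24.2 in T24, against 138, 121 and 157 in T24-R, a 6.13-fold difference (log2 fold change 2.58 ± 0.23 SE, limma adjusted p = 1.26e-05; 1.26 under TMM). Its share went from 5.44% to 8.70% up to 11.5% to 17.5%, and in T24-R replicate 3 it was the most abundant PCDHB transcript. PCDHB8 is also the PCDHB gene with the most shared sequence, 49.2% of its stretches.

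The 3 largest log2 fold changes of the array belonged to genes with low levels in T24. PCDHB7 had scaled counts of 2.13, 2.04 and 0.968 in T24, all at or below 3 reads, and 37.9, 40.6 and 26.4 in T24-R. From 5 and 109 reads its ratio was 20.7 (8.61 to 65.1), and 9.67% of its stretches, the lowest share in the array, occur elsewhere (log2 fold change 3.74 ± 0.33 SE, limma adjusted p = 1.30e-05; 2.64 under TMM). PCDHB10 had 6.39, 7.15 and 5.81 in T24, against 68.9, 85.0 and 51.9 in T24-R, a 10.6-fold difference (log2 fold change 3.20 ± 0.27 SE, limma adjusted p = 1.09e-05; 1.93 under TMM). PCDHB15 had 7.45, 0 and 1.94 in T24, against 39.9, 39.7 and 17.6 in T24-R. Its spread in T24 was wide, and the T24-R replicate 3 value was 0.443 times the mean of the other 2 (log2 fold change 3.43 ± 0.72 SE, limma adjusted p = 1.49e-03; 2.42 under TMM). The log2 fold change of PCDHB15 was 2.66 without T24 replicate 2 and 4.20 without T24 replicate 1. PCDHB3 and PCDHB4 stayed scarce, with means of 2.02 and 1.05 in T24, against 10.2 and 8.49 in T24-R. The ratio of reads of PCDHB4 was 8.24 (2.52 to 42.5).

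The remaining listed PCDHB genes other than PCDHB5 were higher on the deposited scaling. PCDHB11, PCDHB12, PCDHB13 and PCDHB16 had means of 7.23 to 26.3 in T24, against 42.2 to 80.1 in T24-R, 2.98-fold to 5.84-fold. Their log2 fold changes of 1.53 to 2.62 were smaller under TMM, from 0.21 (PCDHB13) to 1.40 (PCDHB11), and none was called there. PCDHB9 had 38.3, 36.8 and 37.7 in T24, against 95.8, 94.2 and 67.6 in T24-R, and PCDHB14 had 29.8, 44.9 and 39.7 and 72.8, 85.0 and 79.3. Both had groups apart, with log2 fold changes of 1.15 and 1.05 that turned to -0.18 and -0.28 under TMM. The call of PCDHB14 was lost without T24 replicate 1 (0.89) and without T24-R replicate 2.

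PCDHB5 went the other way. It had scaled counts of 14.9, 9.19 and 13.5 in T24 (12.5 ± 2.98 SD, n = 3) and 0.998, 1.85 and 1.96 in T24-R (1.601 ± 0.525). The 3 T24 libraries held 37 reads and the 3 T24-R libraries 5, and the level in T24 was 7.79 times that in T24-R (3.05 to 25.4, by counting error). Its log2 fold change was -2.38 ± 0.33 (SE, limma adjusted p = 1.42e-04), between -2.57 and -2.20 with any 1 library left out, and -3.39 under TMM. Its share of the PCDHB sum was 3.01% to 4.76% in T24, against 0.0933% to 0.219% in T24-R. Its neighbours PCDHB4 and PCDHB6 were both higher in T24-R on the deposited scaling. Under TMM PCDHB6 was called higher (1.10) and PCDHB4 was not (1.37, limma adjusted p = 0.084). PCDHB4 held only 3 reads in T24 and 26 in T24-R.

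**Figure D3:**
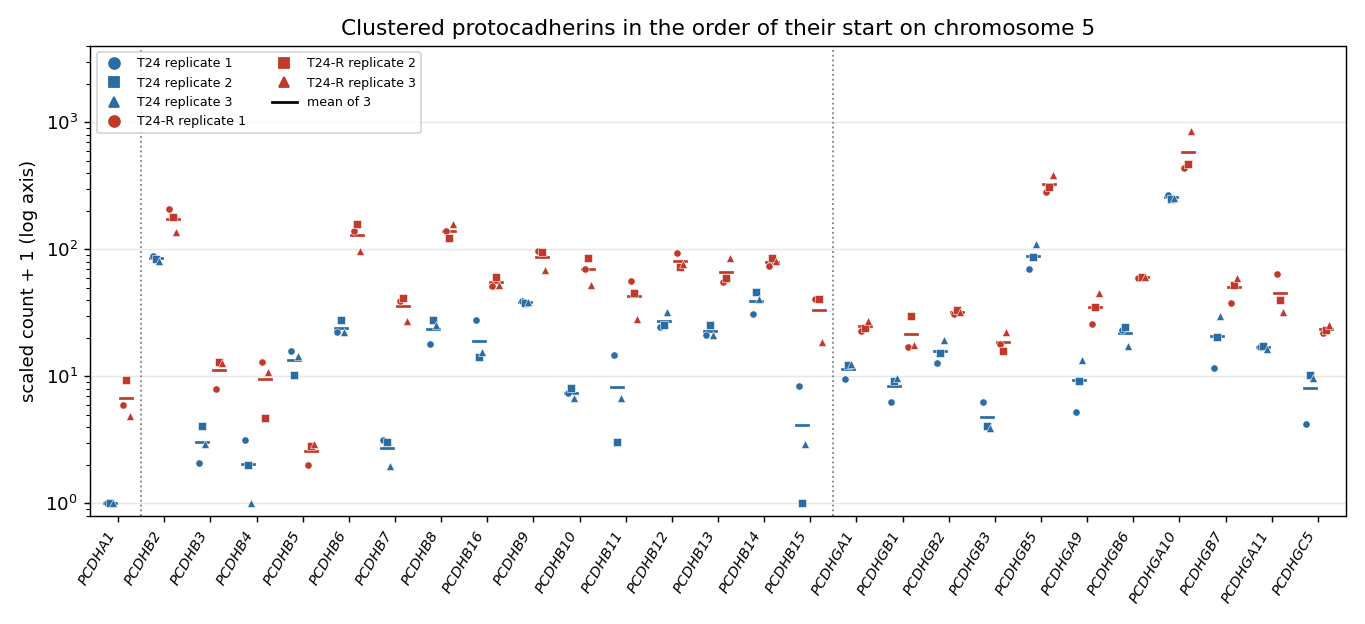
Scaled count + 1 (log axis) in each library for the 27 clustered protocadherins, in the order of their starts on chromosome 5 and with dotted lines between the alpha, beta and gamma arrays; blue symbols are T24 libraries, red symbols T24-R libraries, and bars the mean of 3. PCDHB5 is the only gene whose red symbols lie below the blue ones on the deposited scaling, while under TMM PCDHB2, PCDHB9, PCDHB14, PCDHGA1, PCDHGB2 and PCDHGA10 also turn negative.

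In the gamma array each of the 11 listed genes passed as higher on the deposited scaling, as did 69.2% of all listed genes. The log2 fold changes of the 11 had a narrower range (1.05 to 2.00) than in the beta array. Under TMM 8 of the 11 were positive, 3 were negative and 0 were called, whereas 53.0% of all listed genes were called. The summed scaled count of the 11 genes was 453 ± 32.3 in T24, against 1214 ± 291 in T24-R (SD, n = 3), 2.68-fold. The highest library was T24-R replicate 3, with 1547. PCDHGA10 supplied 52.3% to 63.0% of the sum in T24, against 43.4% to 54.7% in T24-R, with overlap. It had scaled counts of 266, 250 and 255 in T24, against 438, 472 and 847 in T24-R. T24-R replicate 3 was thus 1.86 times the mean of the other 2, and without it the log2 fold change of 1.12 ± 0.23 (SE, limma adjusted p = 1.42e-03) fell to 0.82, under the threshold of 1. Under TMM it was -0.23.

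PCDHGB5 had 69.2, 85.8 and 108 in T24, against 282, 308 and 386 in T24-R, that is, 87.8 ± 19.7 and 326 ± 53.8 (SD, n = 3). It differed 3.71-fold (log2 fold change 1.89 ± 0.20 SE, limma adjusted p = 3.05e-05; 0.55 under TMM), and 54.8% of its stretches are shared, the highest share of the gamma genes. The other 9 (PCDHGA1, PCDHGA9, PCDHGA11, PCDHGB1, PCDHGB2, PCDHGB3, PCDHGB6, PCDHGB7 and PCDHGC5) had means of 3.76 to 20.8 in T24, against 17.8 to 59.5 in T24-R, 2.11-fold to 4.72-fold. Of these, PCDHGA1 and PCDHGB2 turned negative under TMM (-0.15 and -0.24). Without T24 replicate 1 the log2 fold changes of PCDHGA1 (0.99), PCDHGB2 (0.90) and PCDHGB7 (0.99) fell under the threshold. PCDHA1, the only listed alpha gene, had 0 reads in T24 and scaled counts of 4.99, 8.31 and 3.92 in T24-R. Against a floor of 3 reads per library it was at least 1.88-fold higher, but only 7 of its exonic bases belong to no other gene, so that its reads cannot be assigned to it with certainty.

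To set levels of different genes side by side, the mean scaled count of the whole gene was divided by the kb of its exons that no other gene overlaps on either strand. This was done for the 40 genes with at least 1 kb of such exon. In T24-R JUP had the highest level (497 per kb), followed by PCDH1 (394), PCDHGA10 (131) and PCDHGB5 (120), and CADM4 (97.1) and PCDHB2 (75.5) were also high. In T24 the order of the first 2 was the other way round, with PCDH1 at 96.0 and JUP at 63.1 per kb, followed by PCDHGA10 at 57.6. CADM1 moved from rank 36 in T24 (0.436 per kb) to rank 11 in T24-R (29.0), whereas PCDHB5 and CLDN7 moved from ranks 20 and 12 to ranks 40 and 39. For genes that share sequence these levels are approximate. Where exons are overlapped they may be too high, as for PCDHB2, whose count was divided by 2301 of its 4098 exonic bases.

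Among the 32 junction genes with a T24-R mean of at least 20, T24-R replicate 3 lay above both other libraries in 14 and below both in 9. Its ratio to their mean ran from 0.443 (PCDHB15) to 1.86 (PCDHGA10), so the library was not shifted in 1 direction for these genes. Without it 38 of the 41 genes passed as higher and 2 as lower, and the median log2 fold change of the junction genes was 1.81.

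The partners and regulators of these genes were followed in lists of 89 genes, of which the table held 21. On the deposited scaling 18 of them passed as higher and 3 as lower, in a table of which 98.3% of genes passed (69.2% higher, 29.2% lower), and 14 were positive and 7 negative under TMM. At the adherens junction 1 of 12 partners was listed, PLEKHA7, a junction protein that binds p120-catenin. It had scaled counts of 43.6, 43.9 and 31.0 in T24, against 351, 342 and 394 in T24-R, with groups far apart (log2 fold change 3.18 ± 0.18 SE, limma adjusted p = 1.44e-06; 1.84 under TMM). The catenins CTNNA1, CTNNB1 and CTNND1 were not listed.

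Of 26 tight junction partners 8 were listed. All 8 were called higher on the deposited scaling, as were 69.2% of all listed genes. Under TMM 5 were positive, while MARVELD2 (-0.17), PARD6A (-0.024) and PARD6G (-0.047) turned negative. LSR, the angulin of tricellular junctions, had 44.7, 49.0 and 31.9 in T24, against 480, 449 and 321 in T24-R (log2 fold change 3.28 ± 0.22 SE, limma adjusted p = 3.38e-06). Its relative ILDR2 rose by 2.72, and MARVELD2, the tricellulin of the same sites, by 1.17 on the log2 scale, a call lost without T24 replicate 2 (0.94). The JAM relatives F11R and ESAM had log2 fold changes of 1.48 and 1.92, and the polarity proteins PARD6A, PARD6B and PARD6G of 1.31, 1.62 and 1.30. Of 5 desmosome and plakin partners PPL, periplakin, was listed, at 242, 229 and 302 in T24, against 873, 835 and 1344 in T24-R (log2 fold change 1.95 ± 0.20 SE, limma adjusted p = 2.56e-05; 0.60 under TMM). None of 7 gap junction relatives and none of 4 regulators of the clustered protocadherins, CTCF among them, was listed.

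Of 18 transcription and splicing regulators of junction genes 5 were listed, and the epithelial splicing regulators ESRP1 and ESRP2 went in opposite directions. ESRP1 had 13.8, 12.3 and 10.6 in T24, against 135, 140 and 157 in T24-R (log2 fold change 3.46 ± 0.20 SE, limma adjusted p = 1.92e-06; 2.15 under TMM). ESRP2 had 54.3, 60.3 and 67.7 in T24, against 23.9, 25.9 and 14.7 in T24-R (log2 fold change -1.49 ± 0.27 SE, limma adjusted p = 6.37e-04; -2.80 under TMM). In both genes the groups were apart. SNAI3 is a zinc finger protein of the SNAIL family, TCF4 an E-box binding factor, and OVOL2 a factor that maintains epithelial state. Their log2 fold changes were 2.01, 1.92 and 2.13. Under TMM these were positive but under the threshold of 1 (0.74, 0.57 and 0.87). CDH1's known repressors SNAI1, SNAI2, ZEB1 and ZEB2 were not listed.

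Of 8 mesenchymal genes 4 were listed. FN1 (log2 fold change 2.80), COL1A1 (2.49) and TGFBI (1.42) were higher and S100A4 (-1.20) lower in T24-R. The signs were the same under TMM, with TGFBI at 0.10. The call of S100A4 was lost without T24-R replicate 3 (-0.81). Of 9 other adhesion molecules ALCAM was lower, at 6910, 6965 and 7658 in T24 against 2831, 2752 and 4028 in T24-R (log2 fold change -1.18 ± 0.16 SE, limma adjusted p = 1.21e-04, and -2.54 under TMM). MCAM was higher by 1.11 on the deposited scaling, and at -0.24 under TMM.

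**Figure D4:**
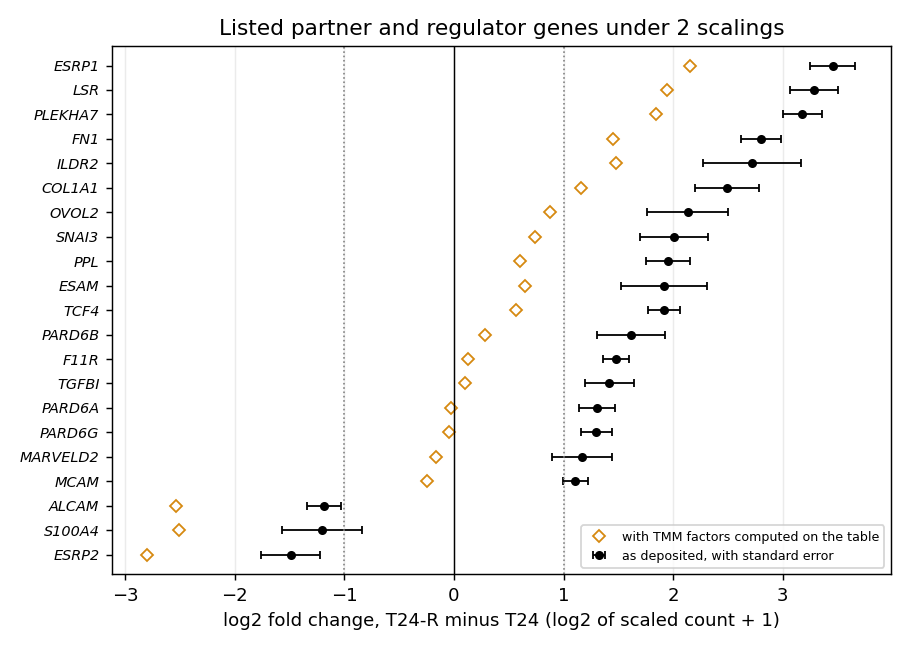
Log2 fold change (T24-R minus T24, on log2 of scaled count + 1) of the 21 listed partner and regulator genes: black points with standard error bars use the deposited scaling, open diamonds TMM factors computed on the table, and dotted lines mark 1 and -1. ESRP1, LSR and PLEKHA7 lie highest under both scalings and ESRP2 lowest, while PARD6A, PARD6G, MARVELD2 and MCAM move below 0 under TMM.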

How the data were processed

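RNA of T24 and T24-R cells was sequenced in 3 libraries each. The sample labels' protocol text names retinas and another library kit, and the submitters' processing notes name the mouse build mm9, whereas the table's human gene identifiers and the study's methods give human cells, a NEBNext kit and GRCh38. Per those methods the authors filtered reads with fastp, aligned them with HISAT2, counted genes with featureCounts and tested with DESeq2. The annotation version is not given in the sources used here. The signal values the authors deposited are counts divided by 1 size factor per library, and only genes past the authors' thresholds are in the table. The authors also deposited group means, a log2 fold change and p-values of their own comparison, which were not used. The number of per-library columns left unused was 0. All values were whole multiples of 1 step per library (tolerance 0.001 of a step), which gave the reads and size factors.

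limma 3.58.1 (lmFit, eBayes with trend, R 4.3.3) was run on log2(value + 1) for all 2462 genes, without a filter or block, with Benjamini-Hochberg adjustment. The p-values measure the spread between these samples, since the labels do not state separate cultures. Alternatives were TMM factors, no trend, only genes whose mean reached 10, pseudocounts of 0.1 and 10, a block for the replicate number, treat, count tests of the recovered reads with edgeR 4.0.16 or DESeq2 1.42.0, and leaving out each library. Ratios of reads are given with exact 95% intervals where a group held few reads, and the floor of detection was set at 3 reads per library.

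The genes, lists and tests were chosen with earlier results of these data known. Named with values were, per class, the 3 genes with the largest absolute log2 fold change at a mean of at least 50, a set of well-known junction genes where listed, uncalled genes (there were 0), and the genes with the largest and smallest log2 fold change. The other genes of each class were added, and 1 of the 41, which enters the counts, is not reported here. Shared exons and 50-base stretches were computed from GENCODE version 44, and promoters were taken from RefSeq (GRCh38.p14). The scripts were tested on simulated data. Python 3.11.15 was used with numpy 2.4.6, pandas 2.3.3, scipy 1.17.1 and matplotlib 3.10.9.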

Additional observations from a re-analysis of the deposited data

How the results depend on the processing

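Scaling mattered most. With TMM factors computed on the table, junction genes called higher went from 39 to 14, called partner and regulator genes from 18 higher to 6, and the median log2 fold change of the junction genes from 1.92 to 0.66. The log2 fold changes that turned negative were those of PCDHB2 (-0.32), PCDHB9 (-0.18), PCDHB14 (-0.28), PCDHGA1 (-0.15), PCDHGB2 (-0.24), PCDHGA10 (-0.23), MARVELD2 (-0.17), PARD6A (-0.024), PARD6G (-0.047) and MCAM (-0.24). With treat, 25 junction genes were called higher, and 0 partner genes lower in place of 3. The filter at a mean of 10 removed both junction genes called lower, leaving 0 of 2. With log2(value + 10), 27 junction genes were called higher and 1 lower, 13 of the 41 calls being lost, and the median was 1.23. Without single libraries, 35 to 39 junction genes were called higher, 2 lower in every case, and the median was 1.73 to 1.99, the lowest without T24 replicate 1. edgeR, DESeq2, limma without trend and log2(value + 0.1) kept all 41 calls.

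The labels number the replicates 1 to 3 in both groups, but same-numbered libraries deviated together only weakly (r = 0.124, 0.0244 and 0.181 over 2094 genes), so the numbers were not taken as pairs. With the replicate block 39 junction genes were called higher and 2 lower, with a median of 1.92, and 18 partner genes higher and 3 lower, with no call changed.

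The table holds only genes that passed a test on these libraries, so it cannot show which junction genes did not change. In T24, 7 junction genes and in T24-R 2 had every library at or below 3 reads, which limits the size of their changes to wide intervals.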
